A study of Mus musculus with 26 samples.

Results

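This account compares germinal vesicle (GV) oocytes of the mouse that carried the HD mutation of Tet3 with wild-type (WT) GV oocytes, across all genes. All libraries labelled HD mutant or WT were taken: 5 HD mutant and 6 WT libraries, 11 of the 26 columns of the series, which hold 24 distinct libraries because 2 columns repeat 2 others. GV oocytes are fully grown oocytes held in meiotic prophase. For each library 10 oocytes were pooled and their polyadenylated RNA sequenced. The labels name the pools of a group biological replicates but do not say which mice they came from. P-values therefore measure the spread between pools. In the fit of HD mutant against WT, which has no batch term, that spread includes differences between batches. Pools of the same batch were treated as independent.

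HD mutant oocytes were Tet3 LCD HD Mutf/f and carried Zp3-Cre, and WT oocytes were Tet3 LCDf/f. LCD stands for the low-complexity domain of Tet3, which was floxed in both groups, and the sources used here do not say what HD stands for. Zp3 is a zona pellucida gene, so Zp3-Cre recombines floxed alleles in growing oocytes and not in the cells around them. WT oocytes carried no Cre, so the HD mutation, recombination of the floxed domain and the presence of Cre cannot be told apart in this comparison. HD mutant 1 to 3 were prepared in batch 2 with WT 4, whereas HD mutant 4 and 5 have no stated batch. WT 1 to 3 belong to batch 1, and WT 5 and 6 to batch 3. For that reason HD mutant 1 to 3 and HD mutant 4 and 5 are followed as separate sets. Agreement of both sets in direction was asked of every gene reported as changed in the fit of all HD mutant and WT libraries.

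TET enzymes oxidise 5-methylcytosine in DNA, the first step of active demethylation, and Tet3 is the member that the oocyte stores for the egg and the zygote. The maternal transcriptome is made while the oocyte grows, and transcription is largely silent once the GV oocyte is fully grown. RNA of a GV oocyte therefore records transcription during growth together with the stability of the stored messages. Arid5b, a DNA-binding protein with an AT-rich interaction domain that partners a histone demethylase, and Klf10, a Krüppel-like repressor first found as an early target of TGF-beta, were followed together with Tet3.

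Total counts were 5564240 to 7250141 in HD mutant 1 to 3, 1838824 and 2242310 in HD mutant 5 and 4, and 3030716 to 5403852 in WT. The number of genes with a count ranged from 12948 to 15254. On a principal component analysis of log2 normalised read counts (CPM, the count relative to the scaled library size), component 1 held 47.5% of the variance and separated HD mutant 4 and 5 from HD mutant 2 and 3. WT 1 to 3 stood apart on component 2, with 22.4% of the variance, and had scaling factors of 0.764 to 0.781, against 0.977 to 1.21 in the other 8 libraries. Rn45s, a ribosomal RNA precursor, held 1.14% to 3.11% of the counts in batch 2 and at most 0.714% elsewhere. Oocyte markers were present in every library, with summed levels of 19833 to 25645 CPM in HD mutant and 19252 to 53389 CPM in WT. Markers of granulosa or cumulus cells summed to 70.5 to 106 CPM in HD mutant and 61.9 to 117 CPM in WT, with Ptx3 at 0 in all 11 libraries. Theca or stroma markers summed to 10.02 to 20.9 and 9.69 to 15.6 CPM, and endothelial markers, with Cdh5 at 0, to 45.2 to 89.8 and 43.0 to 78.6 CPM. Blood or immune markers summed to at most 3.21 CPM in any library, and 6 of the 9 were at 0. Few genes made up most of the other somatic sums. Mean CPM in HD mutant and WT was 57.5 and 59.0 for Pecam1, 10.9 and 9.44 for Cyp11a1, 29.5 and 27.8 for Cyp19a1, and 26.2 and 21.6 for Nr5a2. Fshr was at 0.417 and 0.427 and Foxl2 at 0.220 and 0.235. The sums therefore do not measure how many such cells were present. The part of these differences in the results was not tested.

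**Figure D1:**
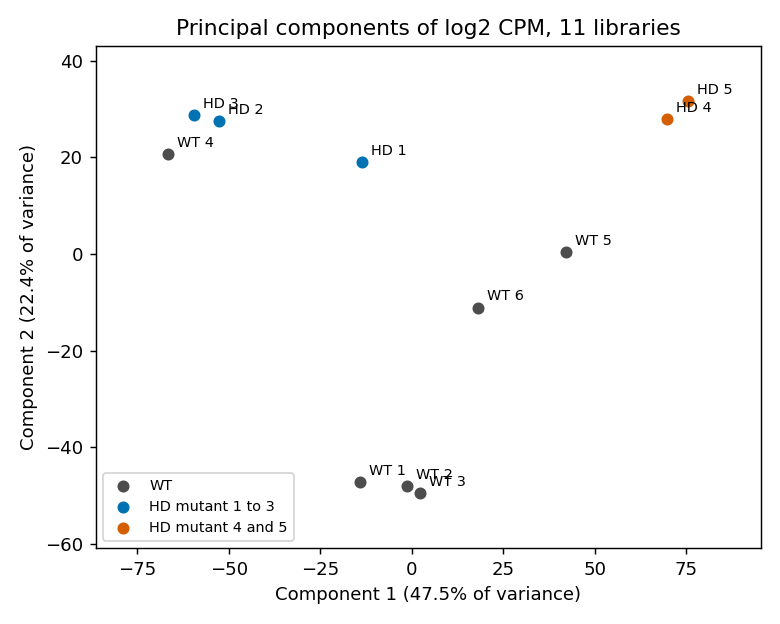
Principal component 1 (x axis, 47.5% of the variance) against component 2 (y axis, 22.4%) of log2 CPM over the genes tested, with 1 point per library. HD mutant 4 and 5 lie at the right, HD mutant 2 and 3 at the left beside WT 4 of the same batch, and WT 1 to 3 at the bottom.

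Between HD mutant and WT oocytes 103 genes changed, 76 higher and 27 lower in HD mutant. They were 0.997% of the 10336 genes, out of 24450, that passed the filter on low counts and were tested with edgeR's quasi-likelihood test at a Benjamini-Hochberg adjusted p under 0.05, or 0.735% for the higher and 0.261% for the lower genes. The median log2 fold change was 1.496 among the higher and -1.65 among the lower genes, and 68 and 25 of them changed by at least 2-fold. In both sets of HD mutant libraries all 103 had the direction of the whole comparison, against 48% of all genes tested, although both sets were set against the same WT libraries. With separate references, HD mutant 1 to 3 against WT 4 and HD mutant 4 and 5 against the other 5 WT libraries, the direction again held for 103 of 103, against 46.1% of all genes tested. The called genes were selected from libraries of both sets, so this agreement describes them and was not tested. In 74 of the 76 higher genes every HD mutant library stood above every WT library, a pattern seen in 2.1% of the genes tested. In 25 of the 27 lower genes every HD mutant library stood below every WT library, against 1.33%. The genes were called from these same libraries, so this separation also describes them and was not tested. For genes with hardly any counts in 1 group, the filter itself asked for counts in all or nearly all libraries of the other group. Their separation was therefore largely fixed in advance.

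These counts depended on the WT libraries used. Without WT 1 to 3, the batch 1 libraries, edgeR called 3 genes (Klf10, Mt1 and Gpat3), all higher, and 0 lower. At an unadjusted p under 0.05 that fit gave 351 higher and 289 lower genes out of 11195 tested. Over all 11 libraries 915 of 10336 genes were higher and 757 lower at this level. All 103 genes passed this level without WT 1 to 3 with their direction kept. They were selected on libraries that this fit shares, so nothing is read from that. By DESeq2, on all 11 libraries, 478 genes were called, 247 higher and 231 lower, among them all 103. Scaling by library totals alone gave 61 higher and 7 lower genes, and this scaling raised the median log2 fold change of all genes from 0.03 to 0.24. A fit with a batch term ran over the 22 distinct libraries with a stated batch, those of other genotypes included. Of the HD mutant libraries it could use 1 to 3 only, and WT 4 was the 1 WT library of their batch. This fit called 923 of 11794 genes (7.83%), 481 higher (4.08%) and 442 lower (3.75%). All 103 genes had the same direction in it, and 66 of the 76 higher and 20 of the 27 lower genes were called there too.

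**Figure D2:**
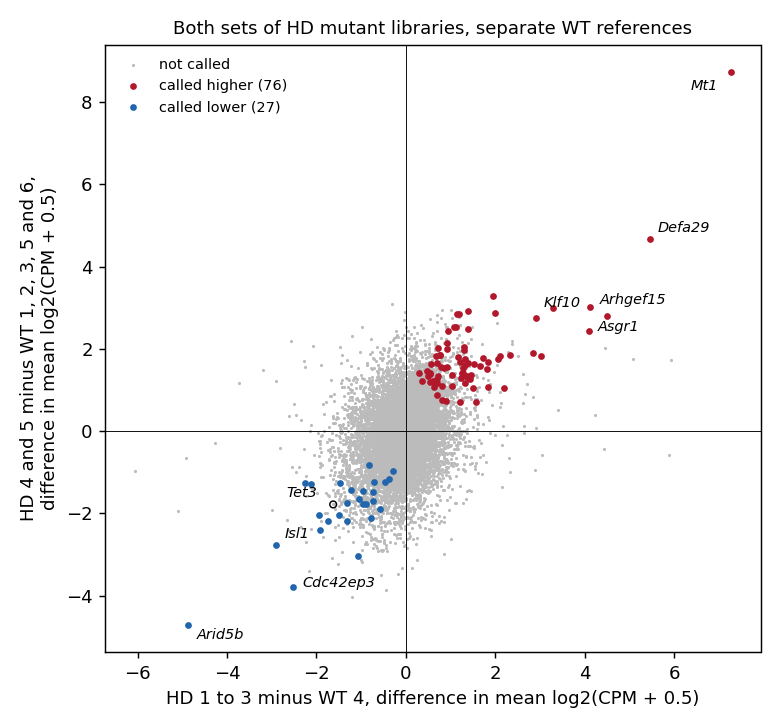
Difference in mean log2(CPM + 0.5) between HD mutant 1 to 3 and WT 4 (x axis) and between HD mutant 4 and 5 and WT 1, 2, 3, 5 and 6 (y axis), with 1 point per gene tested. All 76 genes called higher lie in the upper right and all 27 called lower at the lower left, and the open circle marks Tet3, which was not called.

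Tet3 itself was at 69.9, 191, 186, 49.5 and 67.8 CPM in HD mutant 1 to 5, and at 149.8, 217 and 419 CPM as the lowest, median and highest of the 6 WT libraries. HD mutant 2 and 3 lay among the WT values and the other 3 HD mutant libraries below all of them. The log2 fold change was -1.08 ± 0.40 (SE), with an adjusted p of 0.208 in edgeR's quasi-likelihood test, so Tet3 was not among the called genes. An exact two-sided permutation test of this single value over 462 regroupings gave p = 0.0238, where libraries were exchanged freely across batches. Against WT 4 of their own batch, at 419 CPM, HD mutant 1 to 3 had a mean log2 difference of -1.63, and the batch fit gave -1.86 ± 0.33 (adjusted p = 0.00149). Counts per gene cannot tell fewer Tet3 transcripts from reads missing in a deleted part. As for every gene here, they also cannot tell less RNA in each oocyte from fewer oocytes holding it in a pool. Tet1 was at 1.38 to 6.06 CPM in HD mutant and 1.06 to 7.18 CPM in WT, and Tet2 at 2.29 to 4.96 and 2.29 to 5.27 CPM, with overlapping ranges in both genes.

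Arid5b showed the deepest fall of all genes called. Its level was 1.38, 9.17, 14.3, 3.67 and 7.71 CPM in HD mutant 1 to 5, against a lowest, median and highest of 97.2, 186 and 199.9 CPM in WT. Every HD mutant library was far below every WT library, in both sets. The log2 fold change was -4.45 ± 0.50 (adjusted p = 0.00186, edgeR), and it was -4.28 in HD mutant 1 to 3 and -4.86 in HD mutant 4 and 5. The call held with any of the 11 libraries left out, while without WT 1 to 3 the log2 fold change of -4.21 had an adjusted p of 0.0882. Arid5b was the 1 member of the ARID family, out of 14 tested, that changed, where 0.997% of all genes tested did. The median log2 fold change of these 14 genes was -0.02, beside 0.03 for all genes tested. The batch fit called 1 of the 14 higher and 2 lower.

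Isl1, a LIM-homeodomain transcription factor of heart, pancreas and motor neurons, also fell steeply. It stood at 0.153, 0.143, 0.485, 0 and 0.551 CPM in HD mutant 1 to 5 and at 2.69, 4.83 and 6.04 CPM (lowest, median and highest) in WT. These are 7 counts over the HD mutant libraries and 106 over the WT libraries. Isl1 fell by 4.01 ± 0.49 on the log2 scale (adjusted p = 0.00225). The groups did not overlap, but Isl1 passed the filter on low counts only through the WT libraries. This separation was thus largely fixed in advance, and nothing is read from it. In 5 of the 11 fits that left out 1 library (WT 2, 3, 4, 5 or 6) Isl1 had too few counts to be tested, and in the other 6 it was called.

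Cdc42ep3, an effector of the small GTPase Cdc42 that acts on the cytoskeleton, was at 3.82, 6.16, 9.82, 2.29 and 2.20 CPM in HD mutant 1 to 5 and at 21.1, 42.3 and 57.8 CPM in WT. HD mutant 4 and 5 were the lowest, and all 5 were below every WT library. Its log2 fold change was -2.94 ± 0.42 (adjusted p = 0.00623). By RefSeq's gene order Cdc42ep3 lies next to Qpct, which encodes glutaminyl-peptide cyclotransferase and changed in the opposite direction. Qpct was at 3.98, 4.87, 3.999, 13.8 and 9.37 CPM in HD mutant 1 to 5 and at 0.672, 0.834 and 2.09 CPM in WT, and rose by 2.64 ± 0.47 on the log2 scale (adjusted p = 0.0187). This call was lost without WT 1, 2, 3 or 6, with adjusted p-values of up to 0.0714. Among the 96 called genes that matched a RefSeq gene this was the 1 pair of neighbouring protein-coding genes that were both called.

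Because Tet3 acts on methylated CG sites, the start regions of Arid5b, Isl1 and Cdc42ep3 are shown with each CG in capitals. Each runs from 250 bases before to 50 bases after the first start listed for the gene, 5′ to 3′, from RefSeq's mouse assembly GRCm38.p6. The 32851 regions listed cover 27025 gene symbols, so some genes have other starts. Which start the oocyte uses was not measured. The counts themselves were made on mm9, and genes were matched by symbol. The Arid5b region at chr10:68278677-68278976 (minus strand) holds 7 CG sites, that of Isl1 at chr13:116309639-116309938 (minus strand) holds 37, and that of Cdc42ep3 at chr17:79355042-79355341 (minus strand) holds 27. Over all 32851 start regions of the table the median was 7, and over the 8399 that matched a gene tested here it was 21. The fallen genes therefore include start regions poor and rich in CG. The methylation of these sites was not measured in this experiment.
Arid5b: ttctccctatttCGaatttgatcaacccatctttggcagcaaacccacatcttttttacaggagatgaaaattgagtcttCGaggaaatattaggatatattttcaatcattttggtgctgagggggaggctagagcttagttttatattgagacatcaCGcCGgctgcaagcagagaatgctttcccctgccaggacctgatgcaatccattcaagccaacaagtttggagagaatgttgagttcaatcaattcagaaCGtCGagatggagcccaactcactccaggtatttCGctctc
Isl1: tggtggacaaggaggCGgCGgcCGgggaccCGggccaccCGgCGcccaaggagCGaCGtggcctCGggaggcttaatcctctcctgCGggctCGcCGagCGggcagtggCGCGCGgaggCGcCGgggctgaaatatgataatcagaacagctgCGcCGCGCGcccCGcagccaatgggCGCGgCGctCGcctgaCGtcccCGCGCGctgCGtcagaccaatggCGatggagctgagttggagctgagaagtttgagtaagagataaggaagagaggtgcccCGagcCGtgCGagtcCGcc
Cdc42ep3: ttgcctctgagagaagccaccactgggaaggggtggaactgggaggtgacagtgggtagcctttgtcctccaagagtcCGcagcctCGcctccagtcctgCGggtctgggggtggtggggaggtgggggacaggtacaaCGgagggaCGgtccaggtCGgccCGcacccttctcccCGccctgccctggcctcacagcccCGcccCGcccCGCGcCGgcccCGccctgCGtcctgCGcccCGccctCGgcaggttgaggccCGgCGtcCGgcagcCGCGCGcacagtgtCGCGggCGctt

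Among 30 tested germline genes whose promoters are known to respond to DNA methylation, 2 fell and 28 did not pass the test. Of all genes tested 0.261% fell. The median log2 fold change of the list was -0.15, beside 0.03 for all genes tested, and at an unadjusted p under 0.05 there were 3 genes in each direction. In the batch fit the median was 0.31, on the other side of 0, and 4 genes were called higher and 2 lower. Tex15, which acts in meiotic recombination and in piRNA-directed silencing in the male germline, was at 3.82, 2.29, 5.82, 11.01 and 9.92 CPM in HD mutant 1 to 5. In WT its lowest, median and highest levels were 15.5, 55.9 and 72.7 CPM, the lowest being WT 4. All HD mutant libraries were below this value, and Tex15 fell by 3.06 ± 0.49 on the log2 scale (adjusted p = 0.00987). Hormad1, a protein of the meiotic chromosome axis, was at 4.28, 3.58, 2.67, 8.71 and 4.96 CPM in HD mutant 1 to 5 and at 6.87, 22.2 and 35.3 CPM in WT. Here the groups overlapped, since HD mutant 4 was above WT 4. The log2 fold change of Hormad1 was -2.23 ± 0.44 (adjusted p = 0.0336), and the call held without HD mutant 4 or WT 4 but was lost without any other library.

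Cpeb1 is the RNA-binding protein that holds and later activates stored maternal messages through their poly(A) tails. Of 27 genes in the mRNA storage list, whose median was -0.25, Cpeb1 was the 1 called, beside 0.997% of all genes tested. It was at 498, 546, 458, 396 and 418 CPM in HD mutant 1 to 5 and at 743, 1574 and 2162 CPM in WT. All HD mutant libraries were below all WT libraries, but WT 1 to 3 lay at 2084 to 2162 CPM and WT 4 to 6 at 743 to 1063 CPM. Its log2 fold change was -1.68 ± 0.35 (adjusted p = 0.0388). Without WT 1 to 3 it was -0.94 (adjusted p = 0.535), and with a batch term -0.69 ± 0.23 (adjusted p = 0.0563). The call was also lost when any library other than WT 4 or WT 5 was left out.

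Several fallen genes encode proteins of the cell surface or of signalling. Fgf9, a fibroblast growth factor, was at 3.37, 3.58, 5.21, 1.83 and 3.31 CPM in HD mutant 1 to 5 and at 8.65, 13.3 and 20.9 CPM in WT, with no overlap, and fell by 1.97 ± 0.33 on the log2 scale (adjusted p = 0.0137). Sspn, which encodes sarcospan of the dystrophin complex, was at 7.65, 11.2, 18.9, 31.2 and 28.6 CPM in HD mutant 1 to 5. The WT values of Sspn were 45.7, 66.5 and 108 CPM, all above the HD mutant ones. The fall of Sspn was 1.94 ± 0.38 on the log2 scale (adjusted p = 0.0358).

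Tmem47, a membrane protein of cell junctions, was at 8.26, 4.73, 8.24, 7.34 and 8.26 CPM in HD mutant 1 to 5 and at 14.6, 22.8 and 38.6 CPM in WT, and fell by 1.71 ± 0.28 (log2, adjusted p = 0.0126). Cdh4, or R-cadherin, ranged over 1.10 to 5.04 CPM in HD mutant and 8.37 to 18.0 CPM in WT, with a log2 fold change of -1.72 ± 0.34 (adjusted p = 0.0358). The mucin gene Muc20, which overlaps Muc4, ranged over 0.551 to 2.75 and 4.56 to 12.6 CPM, with -1.90 ± 0.39 (adjusted p = 0.0384). In none of these 3 genes did the groups overlap. Rnf135, a ubiquitin ligase of antiviral RNA sensing, ranged over 1.86 to 4.41 CPM in HD mutant and 7.40 to 17.9 CPM in WT (log2 fold change -1.96 ± 0.35, adjusted p = 0.0187). Muc20 and Tmem47 were not called with a batch term, with log2 fold changes of -1.04 ± 0.45 (adjusted p = 0.147) and -0.91 ± 0.33 (adjusted p = 0.0821). Of these 6 genes Tmem47 kept its call with any 1 library left out, and Fgf9 lost it without HD mutant 1 (adjusted p = 0.0567). Rnf135, Sspn, Cdh4 and Muc20 lost it in 5, 7, 8 and 10 of the 11 such fits, with adjusted p-values of up to 0.0717, 0.103, 0.101 and 0.101. For Muc20 only WT 4 could be left out without losing the call. Rnf135 was lost without HD mutant 1, 2 or 4 or WT 2 or 6, Sspn without HD mutant 1 to 3 or WT 1, 2, 3 or 6, and Cdh4 without HD mutant 1 to 4 or WT 1, 2, 3 or 6.

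**Figure D3:**
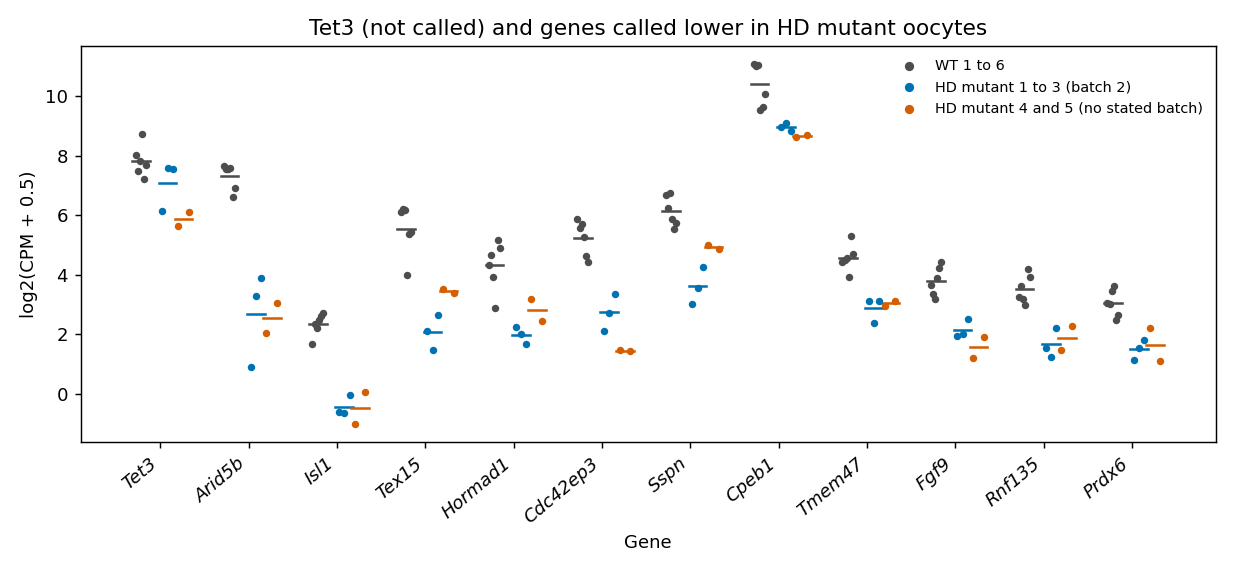
Level of Tet3 and of 11 genes called lower, as log2(CPM + 0.5) on the y axis, with 1 point per library and a bar at the mean of WT 1 to 6 (grey), HD mutant 1 to 3 (blue) and HD mutant 4 and 5 (orange). Arid5b and Isl1 show the widest gap between HD mutant and WT, with log2 fold changes of -4.45 and -4.01, and for Tet3 2 HD mutant libraries lie among the WT points.

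Klf10 was the rise with the smallest p-value after Mt1. It was at 46.3, 41.5, 37.6, 55.5 and 47.4 CPM in HD mutant 1 to 5 and at 5.11, 6.73 and 9.07 CPM in WT (lowest, median and highest). All 5 HD mutant libraries were close together and far above every WT library. The log2 fold change was 2.74 ± 0.21 (adjusted p = 2.84e-05, edgeR), with 2.62 in HD mutant 1 to 3 and 2.92 in HD mutant 4 and 5. Klf10 also passed without WT 1 to 3, at 2.86 (adjusted p = 0.0120).

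Of the KLF and SP family, zinc-finger factors that bind GC-rich promoter boxes, 11 members were tested, of which 3 rose and 8 did not pass the test. Of all genes tested 0.735% rose. The median log2 fold change of the 11 was 0.30, beside 0.03 for all genes tested, and 6 were above 0 and 5 below. Klf12, a repressor, was at 9.02, 5.73, 5.21, 13.8 and 3.31 CPM in HD mutant 1 to 5 and at 0.352, 1.5998 and 2.39 CPM in WT. The HD mutant values were spread, and all were above the WT ones. Klf12 rose by 2.34 ± 0.48 on the log2 scale (adjusted p = 0.0384). Klf13 was at 46.8, 48.0, 64.8, 56.4 and 67.2 CPM in HD mutant 1 to 5 and at 15.8, 25.8 and 35.0 CPM in WT, and rose by 1.12 ± 0.23 (log2, adjusted p = 0.0388). In the batch fit Klf13 was not called, at 0.66 ± 0.24 (adjusted p = 0.0863). The call of Klf12 was lost without HD mutant 1 to 4 or WT 1, 2, 3 or 6, and that of Klf13 without any library other than WT 4 or WT 5.

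Mt1, which encodes the metal-binding protein metallothionein 1, had the highest fold change of all genes tested. Its level was 422, 299.6, 330.1, 475 and 599 CPM in HD mutant 1 to 5 and 0.304 to 1.76 CPM in WT, and it rose by 8.68 ± 0.37 on the log2 scale (adjusted p = 2.58e-08). Mt2, its neighbour of the same family, had 4 counts over the HD mutant libraries and 7 over WT. Mt1 was high in every group with the transgene, at 705 to 2761 counts per library, and had 1 to 10 counts in WT, which lacks it. Its rise in HD mutant oocytes therefore cannot be told apart from the presence of Zp3-Cre. The table also has rows named RGC-CRE and RGC-GFP, whose meaning the labels do not give. RGC-CRE had 69 and 49 counts in HD mutant 4 and 5, and 0 counts in HD mutant 1 to 3, in the other Cre libraries of batch 2 and in WT. RGC-GFP had 39 and 51 counts in HD mutant 4 and 5 and 0 in HD mutant 1 to 3. Mt1, unlike these rows, was high in both HD mutant sets.

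Arhgef15 and Asgr1 were rare or without counts in WT oocytes. Arhgef15, a guanine nucleotide exchange factor, had 7 to 111 counts in each HD mutant library, 212 in all. It had 0 counts in all 6 WT libraries and 1 count over all 19 distinct libraries outside HD mutant. In CPM it stood at 5.81, 7.02, 13.5, 3.21 and 3.86 in HD mutant 1 to 5. Against a floor of 3 counts over the WT group, the mean CPM of the HD mutant libraries was at least 48.7-fold higher and the lowest HD mutant library at least 23.5-fold higher (adjusted p = 0.00825), where the floor covers counting error only. Against LCD KO oocytes, in which the floxed domain was recombined by the same Cre without the HD mutation in the labels, the adjusted p was 4.72e-04. Asgr1, a lectin receptor of the liver, was at 10.6, 7.30, 6.67, 3.67 and 5.51 CPM in HD mutant 1 to 5 and at 0, 0.404 and 0.897 CPM in WT. Its counts were 193 over the HD mutant libraries and 8 over WT. Outside HD mutant it had a count in 14 of the 19 libraries, 32 in all and at most 1.66 CPM in a library. Asgr1 rose by 4.09 ± 0.58 on the log2 scale (adjusted p = 0.00622), and was higher than in LCD KO by 4.33 ± 0.58 (adjusted p = 5.34e-04). Both genes were higher in HD mutant 1 to 3 than in HD mutant 4 and 5 in CPM. With so few WT counts, they passed the filter on low counts only because every HD mutant library was over its cutoff. That both sets stood above every WT library was therefore fixed in advance, and nothing is read from it.

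Other steep rises were seen in genes hardly read in WT. Grb14, an adaptor that inhibits insulin receptor signalling, was at 29.2, 24.5, 13.8, 19.7 and 7.71 CPM in HD mutant 1 to 5 and at 0, 1.79 and 3.36 CPM in WT. Its rise was 3.63 ± 0.56 on the log2 scale (adjusted p = 0.00865). Defa29, a gene of the alpha-defensin family, was at 25.5, 19.2, 20.6, 44.9 and 61.7 CPM and 0, 1.76 and 3.04 CPM in the same order, and rose by 4.53 ± 0.65 (adjusted p = 0.00622). Defensin genes have near-identical copies, so reads may be shared between them.

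Bfsp1, which encodes the lens filament protein filensin, was at 12.5, 15.8, 6.42, 6.42 and 8.82 CPM in HD mutant 1 to 5, at 1.01 to 1.88 CPM in WT 1 to 3 and at 0 in WT 4 to 6. Its log2 fold change was 3.81 ± 0.73 (adjusted p = 0.0328). It was not called with a batch term (1.93 ± 1.31, adjusted p = 0.396), nor without HD mutant 1 or 2 or WT 1 or 6. Kmt2a, a histone H3 lysine methyltransferase of the MLL family, was at 4.28, 5.16, 3.64, 2.75 and 2.75 CPM in HD mutant 1 to 5 and at 0, 0.356 and 0.897 CPM in WT. It rose by 3.27 ± 0.49 (log2, adjusted p = 0.00839). Of 48 genes for histone methylation and acetylation, with a median log2 fold change of -0.02, Kmt2a was the 1 called, beside 0.997% of all genes tested. Without HD mutant 1, 2 or 3 or WT 2 or 4 Kmt2a had too few counts to be tested, and it was called in the other 6 such fits. Bfsp1 and Kmt2a passed the filter on low counts only because every HD mutant library was over its cutoff. The gap between their groups was thus fixed in advance.

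The start regions of Asgr1, Bfsp1 and Grb14, 3 of the steepest rises, are shown in the same way, with CG in capitals. The Asgr1 region at chr11:70053874-70054173 (plus strand) and the Bfsp1 region at chr2:143863124-143863423 (minus strand) hold 4 CG sites each, and the Grb14 region at chr2:65022717-65023016 (minus strand) holds 30. The risen genes thus also include regions on both sides of the median of 21 for tested genes. The box GGGCGG, searched on both strands, was found in the regions of Grb14 and Cdc42ep3 but not in the other 4 shown, and in 35.7% of all start regions in the table and 63.3% of those of tested genes. A match describes these letters and shows no binding. A comparison of CG content between all risen and all fallen genes was void, because only 75.0% of the 76 risen genes had a start region in the table. No region was found for Klf10, Arhgef15, Defa29, Qpct, Tex15, Cdh4 and Zhx1.
Asgr1: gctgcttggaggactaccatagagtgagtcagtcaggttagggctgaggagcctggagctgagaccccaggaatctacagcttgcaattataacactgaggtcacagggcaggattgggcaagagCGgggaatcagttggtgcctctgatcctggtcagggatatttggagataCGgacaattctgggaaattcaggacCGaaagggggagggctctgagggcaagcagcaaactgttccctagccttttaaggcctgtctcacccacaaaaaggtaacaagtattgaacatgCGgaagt
Bfsp1: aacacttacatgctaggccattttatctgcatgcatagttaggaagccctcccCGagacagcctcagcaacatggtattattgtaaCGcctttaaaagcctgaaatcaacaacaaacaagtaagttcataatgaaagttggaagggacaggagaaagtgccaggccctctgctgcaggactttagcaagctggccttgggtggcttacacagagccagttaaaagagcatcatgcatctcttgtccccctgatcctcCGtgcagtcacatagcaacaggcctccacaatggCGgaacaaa
Grb14: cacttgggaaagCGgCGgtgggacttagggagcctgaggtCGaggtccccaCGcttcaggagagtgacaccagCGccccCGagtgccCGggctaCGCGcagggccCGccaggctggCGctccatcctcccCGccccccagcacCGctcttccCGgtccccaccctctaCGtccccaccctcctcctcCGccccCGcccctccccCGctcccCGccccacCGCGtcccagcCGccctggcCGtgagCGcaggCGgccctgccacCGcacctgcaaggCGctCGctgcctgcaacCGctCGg

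Among rises of more abundant genes, Mxd4, a partner of Max that opposes Myc, was at 278, 197, 239, 137 and 125 CPM in HD mutant 1 to 5 and at 19.5, 35.1 and 95.3 CPM in WT. The highest WT value was that of WT 4, below all HD mutant values. Mxd4 rose by 2.16 ± 0.38 on the log2 scale (adjusted p = 0.0187). Psme2, a subunit of the PA28 proteasome activator, was at 82.6, 66.3, 72.8, 129.8 and 155 CPM in HD mutant 1 to 5 and at 12.1, 22.2 and 32.2 CPM in WT, and rose by 2.18 ± 0.31 (log2, adjusted p = 0.00600). Its copy Psme2b was called as well, with a log2 fold change of 2.16 (adjusted p = 0.0410), and the counting may have split reads between the 2 genes.

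Hnmt, which inactivates histamine by methylation, was at 66.1, 41.0, 26.2, 129 and 207 CPM in HD mutant 1 to 5 and at 15.5, 19.0 and 31.99 CPM in WT. Its groups overlapped, since HD mutant 3 was below WT 5. Hnmt rose by 2.17 ± 0.46 on the log2 scale (adjusted p = 0.0418), with 1.11 in HD mutant 1 to 3 and 3.03 in HD mutant 4 and 5. Leaving out 1 library ended the call of Mxd4 for HD mutant 1 and WT 2, 3 and 6, and that of Hnmt for all but HD mutant 2, HD mutant 3 and WT 4.

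5 further rises had among the smallest p-values. The unannotated gene 1500026H17Rik ranged over 7.30 to 18.7 CPM in HD mutant and 0.752 to 1.79 CPM in WT (log2 fold change 3.04 ± 0.36, adjusted p = 0.00186). Rsph9, a radial spoke protein of motile cilia whose gene overlaps Mrps18a, ranged over 18.2 to 28.6 and 3.89 to 6.69 CPM (log2 fold change 2.03 ± 0.24, adjusted p = 0.00186). Ska2, which joins kinetochores to spindle microtubules, ranged over 30.3 to 46.8 and 6.99 to 13.7 CPM, with 1.85 ± 0.23 (adjusted p = 0.00307). Zhx1, a zinc-finger and homeobox repressor, ranged over 22.9 to 46.0 CPM in HD mutant and 6.02 to 11.1 CPM in WT, with 2.104 ± 0.27 (adjusted p = 0.00319). H2afj, a histone H2A variant, ranged over 128 to 215 CPM and 54.2 to 83.7 CPM, with 1.51 ± 0.20 (adjusted p = 0.00319). In all 5 genes the 2 groups stood apart, and each kept its call with any 1 library left out. For 1500026H17Rik, with few WT counts, the filter on low counts had fixed this separation in advance.

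Some further called genes were picked after their values were seen. Dkk1, a secreted Wnt inhibitor, was at 47.7, 33.7, 36.4, 70.6 and 30.3 CPM in HD mutant 1 to 5 and at 8.98, 13.6 and 18.2 CPM in WT, a rise of 1.75 ± 0.27 on the log2 scale (adjusted p = 0.00865). Trpv2, a calcium channel, rose by 1.48 ± 0.21, from 8.97 to 12.9 CPM in WT to 25.2 to 40.7 CPM in HD mutant (adjusted p = 0.00600). Timm10, which carries proteins into mitochondria, was at 38.0 to 69.7 CPM in HD mutant and 9.03 to 30.1 CPM in WT, and rose by 1.87 ± 0.31 (adjusted p = 0.0131). Lztfl1, a regulator of traffic in cilia, rose by 1.24 ± 0.19 (adjusted p = 0.00865). The groups did not overlap in any of these 4 genes.

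**Figure D4:**
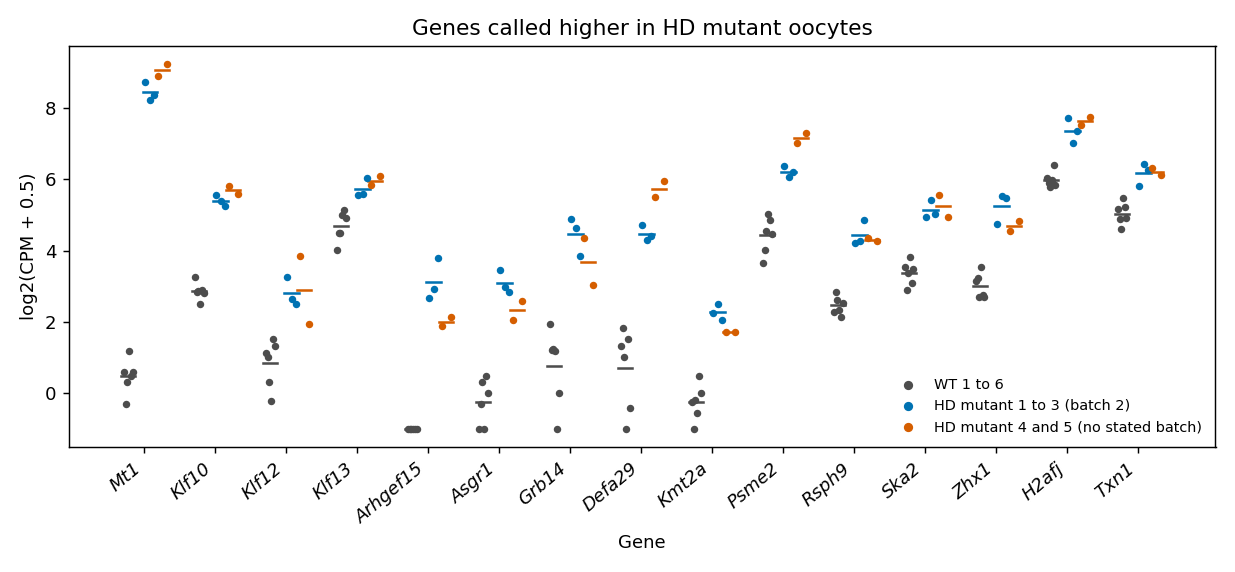
Level of 15 genes called higher, as log2(CPM + 0.5) on the y axis, with 1 point per library and a bar at the mean of WT 1 to 6 (grey), HD mutant 1 to 3 (blue) and HD mutant 4 and 5 (orange). Both HD mutant sets lie above every WT library in each gene shown, which the count filter fixed for genes with hardly any WT counts, such as Arhgef15, Asgr1 and Kmt2a. Mt1 shows the widest gap, and all 6 WT points of Arhgef15 lie at the value of 0 CPM.

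The lists described next hold 13 to 78 tested genes each, so at the 0.997% called among all genes tested a list would hold at most about 1 call, and nothing is read from a count of 0. At an unadjusted p under 0.05, 915 of the 10336 genes were higher (8.85%) and 757 lower (7.32%), and these shares stand beside the counts of each list. Of 27 tested genes of the DNA methylation machinery edgeR called 0. At an unadjusted p under 0.05 there were 0 higher and 6 lower, and DESeq2 called 1 lower. The batch fit called 2 higher and 2 lower, among them Dnmt3l, the cofactor of de novo methylation, at -0.70 ± 0.21 (adjusted p = 0.0402). Over all HD mutant and WT libraries Dnmt3l was not called by edgeR, at -0.32 ± 0.36 (adjusted p = 0.731). Its 2 HD mutant sets did not agree in direction, at 0.003 in HD mutant 1 to 3 and -1.02 in HD mutant 4 and 5. WT 4, of batch 2, was the highest WT library for Dnmt3l, at 324 CPM. The median log2 fold change of the list was -0.24, beside 0.03 for all genes. Dnmt3a, the de novo methyltransferase of the oocyte, ranged over 358 to 641 CPM in HD mutant and 228 to 609 CPM in WT, with a log2 fold change of 0.51 ± 0.29 (adjusted p = 0.424). The sign of the Dnmt3a value turned with a batch term, to -0.16 ± 0.18. Dnmt1, the maintenance methyltransferase, was at 747, 1407, 1481, 347 and 431 CPM in HD mutant 1 to 5 and at 655, 1054 and 1722 CPM in WT (log2 fold change -0.37 ± 0.42, adjusted p = 0.740). HD mutant 1, 4 and 5 lay below HD mutant 2 and 3 in this gene, and the groups overlapped. Of 22 genes of base excision repair edgeR and DESeq2 called 0 and the batch fit 1 higher, and at an unadjusted p under 0.05 there were 1 higher and 2 lower.

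Oocyte markers did not pass the test. All 13 had log2 fold changes below 0, with a median of -0.57, and edgeR called 0, with 0 higher and 3 lower at an unadjusted p under 0.05, 3 lower by DESeq2 and 2 lower in the batch fit. The median was -0.22 with library totals as scaling, -0.30 without WT 1 to 3 and -0.17 with a batch term. The zona pellucida and egg surface list had a median of -0.65 over 15 genes, with 0 called by edgeR, 5 lower at an unadjusted p under 0.05 and 4 lower by DESeq2. In the batch fit 3 of these genes were called lower, with a median of -0.31. Gdf9, the growth factor through which the oocyte directs granulosa cells, was at 3745, 3489, 3705, 2818 and 2647 CPM in HD mutant 1 to 5 and at 3637, 8613 and 12644 CPM in WT. Its WT values fell into WT 1 to 3, at 12212 CPM or more, and WT 4 to 6, at 5014 CPM or less. The log2 fold change of Gdf9 was -1.35 ± 0.42 (adjusted p = 0.145), -0.45 without WT 1 to 3 and 0.01 between HD mutant 1 to 3 and WT 4 of the same batch.

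The subcortical maternal complex and NLRP list had a median of -0.48 over 18 genes, with 0 called by edgeR, 3 lower at an unadjusted p under 0.05 and 2 lower by DESeq2. The median was -0.03 without WT 1 to 3 and -0.39 in the batch fit, which called 1 lower. Among its members Nlrp4a ranged over 283 to 399 CPM in HD mutant and 482 to 681 CPM in WT without overlap, at a log2 fold change of -0.77 ± 0.20 (adjusted p = 0.0970). Nlrp4a was called in the batch fit, at -0.91 ± 0.18 (adjusted p = 0.00184), and when WT 4 was left out. For 21 maternally methylated imprinted genes edgeR called 0, with 5 lower at an unadjusted p under 0.05 and 1 lower by DESeq2, and the median was -0.05. In the batch fit 1 was called lower and the median was -0.32. Of these, Mest was at 85.0, 79.9, 74.0, 103 and 81.0 CPM in HD mutant 1 to 5 and at 88.8, 179 and 208 CPM in WT, where the lowest was WT 4 and the groups overlapped. Its log2 fold change was -1.01 ± 0.22 (adjusted p = 0.0521).

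Among lists of basic metabolism, the 77 cytosolic ribosomal protein genes tested had a median log2 fold change of 0.38, with 67 above 0, and a median of 0.03 in the batch fit. EdgeR called 0 of them, with 16 higher and 0 lower at an unadjusted p under 0.05, 2 higher by DESeq2 and 3 higher in the batch fit. Of 78 genes of the respiratory chain and ATP synthase 1 rose, with a median of 0.33, and that median was 0.00 in HD mutant 1 to 3, 0.67 in HD mutant 4 and 5 and 0.19 in the batch fit, which called 1 higher. The gene called was Ndufv3, a subunit of complex I, at 98.7, 92.7, 94.6, 135 and 147 CPM in HD mutant 1 to 5 and 34.2, 37.5 and 55.7 CPM in WT. It rose by 1.45 ± 0.21 on the log2 scale (adjusted p = 0.00622).

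Of 30 genes for glutathione and antioxidant defence 1 rose and 1 fell, with a median of 0.36 and with 8 higher and 3 lower at an unadjusted p under 0.05. The batch fit gave a median of 0.09 and called 3 higher and 1 lower. Txn1, or thioredoxin, rose by 1.15 ± 0.20, from 23.7 to 43.9 CPM in WT to 56.1 to 85.6 CPM in HD mutant (adjusted p = 0.0187). Prdx6, a peroxiredoxin that repairs oxidised lipids, fell by 1.65 ± 0.35, from 5.08 to 11.8 CPM to 1.65 to 4.13 CPM (adjusted p = 0.0410). The groups did not overlap in either gene. The call of Txn1 was lost without WT 1, 2, 3 or 6, and that of Prdx6 without HD mutant 1, 2, 3 or 5 or WT 1, 2, 3 or 6.

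In the lists for stress and cell death edgeR called 0 genes on all 11 libraries, and the batch fit called some in each. Of 40 genes of the unfolded protein response and heat shock, 5 were higher and 4 lower at an unadjusted p under 0.05, with 1 higher by DESeq2 and a median of -0.06. In the batch fit 5 were called higher and 1 lower, with a median of 0.14. Xbp1 and Ddit3, transcription factors of that response, were among the 5, at 1.33 ± 0.33 (adjusted p = 0.0148) and 1.22 ± 0.26 (adjusted p = 0.00453). On all 11 libraries edgeR gave 1.14 ± 0.30 (adjusted p = 0.108) and 0.76 ± 0.26 (adjusted p = 0.192), and in both genes the groups overlapped. For 29 p53 and DNA damage genes there were 2 higher and 5 lower at an unadjusted p under 0.05, with 3 lower by DESeq2. The batch fit called 1 of each, and the median was 0.10. For 17 apoptosis genes there were 2 higher and 3 lower at the same level, with 2 lower by DESeq2, 1 lower in the batch fit and a median of 0.00. Meiotic maturation, spindle and checkpoint genes also gave 0 calls of 49, with 3 higher and 6 lower at an unadjusted p under 0.05 and 1 of each by DESeq2. Their median was -0.11, and 0.08 in the batch fit, which called 2 higher and 1 lower. Scaling by library totals moved the medians of all lists upward with that of all genes, so that those of base excision repair, ARID, germline, imprinted, unfolded protein response, histone and meiotic maturation genes stood at 0.21, 0.17, 0.03, 0.20, 0.19, 0.23 and 0.09.

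**Figure D5:**
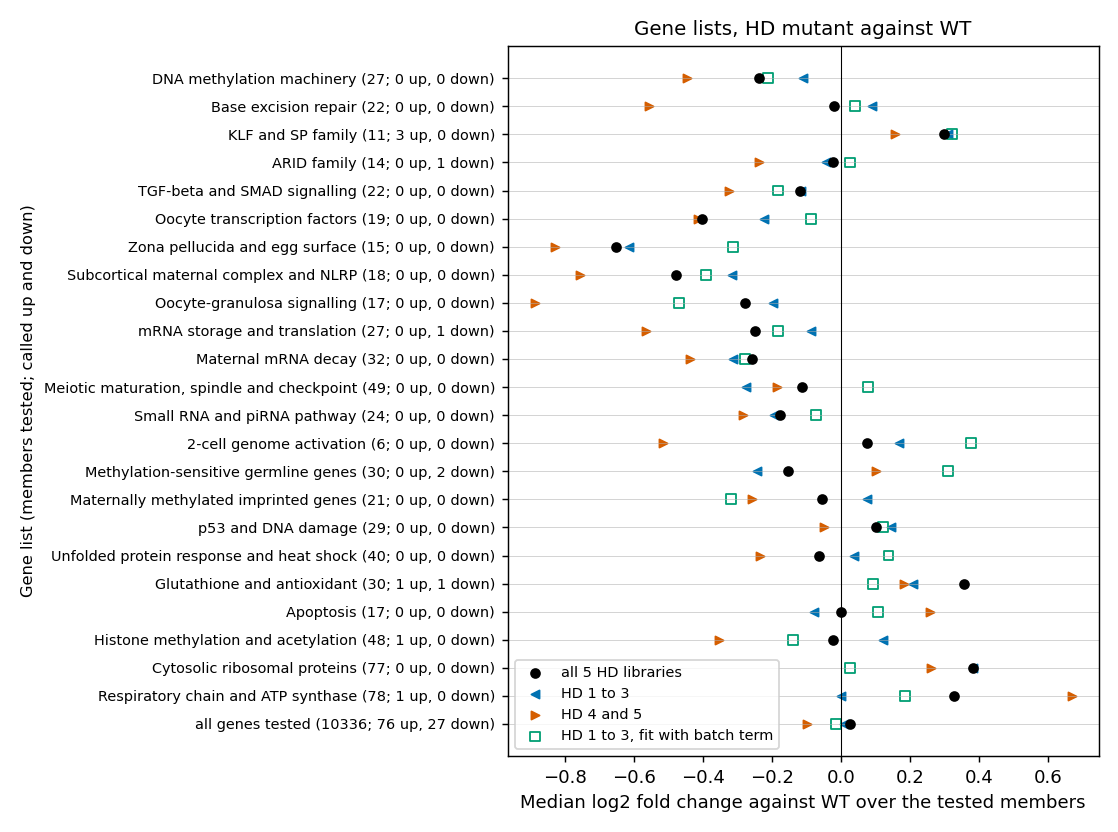
Median log2 fold change against WT (x axis) over the tested members of each gene list (y axis, with the number tested and the numbers called higher and lower), for all 5 HD mutant libraries, for each HD mutant set and for the fit with a batch term. The oocyte lists lie left of 0 and the ribosomal protein list right of it for all 5 libraries, and the values of the 2 HD mutant sets differ for most lists.

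The HD mutant was also set against LCD KO, the 7 libraries whose genotype shares the floxed domain and Zp3-Cre. In edgeR's quasi-likelihood test over the 24 distinct libraries 99 of 11836 genes differed (0.836%), or 245 of 11794 (2.08%) with a batch term and HD mutant 1 to 3. Of the 103 genes that separated HD mutant from WT, 24 differed from LCD KO, and 27 with the batch term. The 103 genes were selected with the same HD mutant libraries, so nothing is read from these counts against those of all genes. Levels in this paragraph are CPM scaled over all 24 distinct libraries. Arid5b was at 79.2, 125 and 376 CPM (lowest, median and highest) in LCD KO and at 1.42 to 14.8 CPM in HD mutant, a log2 difference of -4.55 ± 0.50 (adjusted p = 5.82e-05). Sspn was at 37.6, 63.7 and 79.8 CPM in LCD KO and 7.88 to 31.7 CPM in HD mutant, with -1.59 ± 0.32 (adjusted p = 0.0122), and its ranges did not overlap. Isl1 was at 0.823, 1.36 and 2.07 CPM in LCD KO, between the HD mutant and the WT values, and with a log2 difference of -2.20 ± 0.46 for HD mutant against LCD KO (adjusted p = 0.0182). Tmem47 went the other way, at 0.791, 1.15 and 4.36 CPM in LCD KO and 4.98 to 8.53 CPM in HD mutant, a log2 difference of 2.02 ± 0.36 (adjusted p = 0.00719). Timm10 and Dkk1 were higher in HD mutant than in LCD KO by 1.87 ± 0.29 (adjusted p = 0.00279) and 1.59 ± 0.28 (adjusted p = 0.00694).

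For other genes the test found no difference between HD mutant and LCD KO, which does not show that they were alike. Cdc42ep3 was at 1.84, 4.08 and 9.60 CPM in LCD KO and 2.24 to 10.2 CPM in HD mutant, with a log2 difference of 0.05 ± 0.43 (adjusted p = 0.979). Psme2 gave 0.01 ± 0.27 (adjusted p = 0.992), Cdh4 0.09 ± 0.29 (adjusted p = 0.947) and Tet3 0.35 ± 0.40 (adjusted p = 0.803). Klf10 was at 56.7, 76.1 and 102 CPM in LCD KO and 38.9 to 56.4 CPM in HD mutant, in CPM over all 24 libraries. All HD mutant values lay below the lowest LCD KO value, at a log2 difference of -0.69 ± 0.17 with an adjusted p of 0.0504, and with the batch term -0.46 with an adjusted p of 0.244.

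The 2 HD mutant sets differed widely from each other. Between HD mutant 4 and 5 and HD mutant 1 to 3, edgeR called 2071 of the 10336 genes (20%), 1022 higher (9.89%) and 1049 lower (10.1%), and batch, depth and set cannot be told apart here. The count fell to 9 without HD mutant 5, 11 without HD mutant 3, 19 without HD mutant 2 and 98 without HD mutant 4. Of the 103 genes that changed against WT, 6 differed between the sets. Genes with a small spread among all HD mutant libraries pass the test against WT more easily, so nothing is read from this count against that of all genes. Qpct and Hnmt are among the 6, both higher in HD mutant 4 and 5, by 1.43 ± 0.45 (adjusted p = 0.0413) and 1.92 ± 0.39 (adjusted p = 0.0137) on the log2 scale. Tet3 gave -1.35 ± 0.49 between the sets (adjusted p = 0.0654), and Dnmt1, which was not called against WT, -1.64 ± 0.51 (adjusted p = 0.0397).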

How the data were processed

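The deposited table held raw read counts per gene symbol, which the authors had not normalised. The tools, per the submitters' processing notes, were Trim Galore 0.5.0 for trimming, HISAT2 2.1.0 for alignment and featureCounts 1.6.4 for counting, on the mm9 build. Annotation, strandedness and multi-mapping rules are not given in the sources used here, which leaves overlapping, antisense and near-identical genes uncertain. No libraries of a group were copies of each other (lowest chi-square per degree of freedom 3.36). The 92 spike-in rows, with 0 counts in the 11 libraries, were left out.

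Counts were tested with edgeR 4.0.16 in R 4.3.3 (TMM factors, filterByExpr, robust quasi-likelihood fit, 9 residual degrees of freedom) with a group term. P-values were adjusted by the Benjamini-Hochberg method over all genes tested and called under 0.05, and fold changes are given with their SE. CPM values are scaled by the TMM factors. Floors were 3 counts over a group and cover counting error only, as reads had no molecular identifiers. Scripts were tested on simulated data. Alternatives were DESeq2 1.42.0, sva 3.50.0, other scalings and filters, a batch term, a replicate block and left-out libraries.

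Named genes were Tet3, Arid5b and Klf10, the 12 largest rises and falls with a mean of at least 2 CPM and a regular symbol, the 10 smallest p-values and up to 4 called genes per list. Genes and lists were chosen with earlier results of these data known.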

Additional observations from a re-analysis of the deposited data

Results flagged for a closer look

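In groups of 5 or 6 libraries, 10 of 130 groups screened held a library far from the others, where chance alone flags about 1 in 20 groups. In WT 4 Tex15 (15.5 CPM), Mest (88.8 CPM) and Hells, a chromatin remodeller (56.4 CPM), were below the other WT libraries, and Timm10 (30.1 CPM), Dnmt3a (609 CPM) and the ribosomal protein gene Rps23 (83.1 CPM) above them. WT 4 is the 1 WT library of batch 2. In WT 1 Slc16a11, a monocarboxylate transporter, was low at 2.35 CPM. Among HD mutant libraries Cdh4 was low in HD mutant 5 (1.10 CPM), Tmem47 low in HD mutant 2 (4.73 CPM) and Rsph9 high in HD mutant 3 (28.6 CPM).

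The HD mutant sets differed in the edgeR test of that difference for 3 of the genes described. Hnmt was higher by 1.92 and Qpct by 1.43 in HD mutant 4 and 5 on the log2 scale, and Dnmt1 had a log2 difference of -1.64.

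The rows named RGC-CRE and RGC-GFP, whose meaning the labels do not give, enter no comparison and held signal in 1 set. RGC-CRE was at 31.6 CPM in HD mutant 4 and 27.0 CPM in HD mutant 5, and RGC-GFP at 17.9 and 28.1 CPM, while HD mutant 1 to 3, labelled as carrying Zp3-Cre, had 0 counts in both rows. WT had 0 counts of RGC-CRE and 2 counts of RGC-GFP.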

How the results depend on the processing

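All 103 called genes had the same direction in each alternative in which they were tested, but the counts moved. Of 103 genes called, 76 higher and 27 lower, other settings gave, in the same order with both sets agreeing, 923, 300 and 238 with group and batch terms, 19, 7 and 4 in batch 2 alone (HD mutant 1 to 3 against WT 4, which rests on 1 WT library assumed to vary like the HD mutant ones), and 979, 369 and 208 for HD mutant 4 and 5 against all WT. They were 3, 3 and 0 without the WT libraries of batch 1, 405, 222 and 150 over all distinct libraries, and 478, 228 and 206 by DESeq2. Scaling by library totals gave 68 and, lower, 7. Surrogate variables gave 1144, 516 and 530 with 1 and 1216, 549 and 494 with 2. RLE factors, both other count filters and HD mutant 1 to 3 against all WT stayed within 1.5 times. Leaving out each library in turn gave 31 (without WT 2) to 551 (without WT 4) called genes, 25 to 350 higher and 6 to 200 lower. It gave 35 without WT 1, 36 without WT 3, 37 without WT 6, 39, 61, 55 and 52 without HD mutant 1, 2, 3 and 4, and 29 of the 103 were called in every such fit. For the difference between the HD mutant sets the range was 9 to 2290. The cause was not tested.

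The labels give both groups replicate numbers, but HD mutant 1 to 3 and WT 1 to 3 are of different batches. Correlations of same-numbered deviations ran from -0.55 to 0.54, 2 of 5 over 0.1. For numbers 1 and 5 the same-numbered WT library was the closest (0.21 and 0.54), and for 2, 3 and 4 another was. Batch enters these deviations too, so they cannot decide whether the numbers pair libraries. A replicate block left 1 gene called (Mt1), 1 higher and 0 lower, with 750 higher and 659 lower at an unadjusted p under 0.05.

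Among genes described, 6 values turned sign, none of a called gene. Dnmt3a gave -0.16 with group and batch terms and -0.19 in batch 2 alone, where Gdf9 gave 0.0126, Zp3 0.18 and Zfp57 0.11. Dnmt1 gave 0.0806 in HD mutant 1 to 3 against all WT. HD mutant 4 and 5 were the shallowest libraries, which limits genes of few counts.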
